A study of Mus musculus with 8 samples.

Results

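Cortical thymic epithelial cells (cTEC) low in Tbata and Ccl25 made up 472 of the 1425 cTEC found in the thymus of 1-week-old mice, and of the 9953 cells in all libraries. They were chosen by their RNA counts in the 1-week libraries, where a count is a unique molecular identifier (UMI), 1 per captured transcript. A cell needed at least 4000 UMIs, at least 3 UMIs of Epcam, Krt8, Krt18 and Krt5 together, and more of these than of Col1a1, Col1a2, Col3a1 and Dcn. It also needed Psmb11 and Prss16 together at 3 UMIs or more and at 0.1% of its UMIs or more, which defined a cTEC. cTEC with Tbata and Ccl25 together under 0.3% of UMIs are called low here, and the 953 cTEC at or above 0.3% are called rich. All of these genes were selected on, so their values describe the groups and are not findings.

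The study profiled thymic stroma of C57BL/6 mice by CITE-seq, in which single-cell mRNA is counted together with DNA tags carried by antibodies or a lectin. No transgene or treatment is named for any group. Stroma of 6 thymi at 1 week and of 3 thymi at 16 weeks was pooled by age, depleted of CD45-positive cells and sorted into EpCAM1-positive and EpCAM1-negative cells mixed 70 to 30. Each pool was loaded on 2 wells, so the wells of an age differ only as technical replicates, and no p-value is given anywhere. Intervals are exact 95% binomial or Poisson-based limits and cover counting error only.

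cTEC line the outer thymus and drive the early steps of T cell development: they supply Notch ligand, IL-7, stem cell factor and chemokines to immature thymocytes, and they present the self-peptides on which T cells are positively selected. Psmb11 encodes the β5t subunit of the thymoproteasome and Prss16 a thymus-specific serine protease, both of which shape those peptides. Ccl25 is a chemokine that draws thymocyte precursors through its receptor CCR9, and Tbata encodes a protein of thymus, brain and testis that has been linked to control of TEC proliferation. In mm10, Psmb11 lies at chr14:54621433-54629556, Prss16 at chr13:22002173-22009742, Tbata at chr10:61171954-61188841 and Ccl25 at chr8:4325210-4360020.

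The surface results below rest on reads of 15-base oligonucleotides, 1 for each antibody or lectin, that stand for the protein on the cell. Those of the 12 tags that differed between low and rich cells in the comparison without foreign clusters, defined below, are shown because these reads are the measurement. UEA1, a lectin that binds fucosylated sugars, was read through a streptavidin oligonucleotide.
CD40: atttgtatgctggag
CD83: tctcaggcttcctag
CD270: gatccgtgttgccta
CD274: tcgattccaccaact
CD9: tagcagtcactccta
CD49a: ccattcatttgtggc
CD73: acacttaacgtctgg
CD200: tcaattccggtagtc
MadCAM1: ttgggcgattaagaa
Podoplanin: gggcgatttagtgtg
Epcam: acccgcgttagtatg
UEA1: aacctttgccactgc

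Of the cTEC at 1 week, 259 of 860 in well 1 were low, or 30.1% (27.1 to 33.3), and 213 of 565 in well 2, or 37.7% (33.7 to 41.8). The mean was 33.9% ± 5.36 (SD, n = 2 wells). At 16 weeks the same rule gave 22 of 55 cTEC in well 1, or 40% (27.02 to 54.1), and 50 of 148 in well 2, or 33.8% (26.2 to 42.0). The intervals of the 2 ages overlap, and with 1 pool per age a difference between ages was not detectable. The share at 1 week depended on the limits, and ran from 4.20% to 51.3% over the alternatives given at the end.

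The limit cut through a continuous range. Just inside it, at 0.25 to 0.3% of UMIs, lay 48 and 40 cells of wells 1 and 2, and just outside it, at 0.3 to 0.35%, lay 39 and 31. The nearest low cell held 9 Tbata and 4 Ccl25 UMIs among 4340, or 0.2995%, and the nearest rich cell 12 and 7 among 6327, or 0.3003%. A few UMIs therefore set the side of the cells near the limit. The median share of Tbata and Ccl25 was 0.187% and 0.175% in low cells of wells 1 and 2, against 0.902% and 0.882% in rich cells. Psmb11 and Prss16 together stood at a median of 0.178% and 0.179% in low cells and at 0.458% and 0.481% in rich cells.

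Before depth was matched, low cells were the shallower group and held more mitochondrial RNA. Their median was 8824 and 7633 UMIs, against 16154 and 25201.5 in rich cells. Their median mitochondrial share was 6.08% and 6.85%, against 2.42% and 2.62%. At matched depth it was 6.08% and 6.20% in low cells against 3.23% and 6.43% in rich cells, and without foreign clusters, defined below, 4.33% and 4.60% against 4.37% and 3.78%, so the mitochondrial difference did not hold in both wells once depth was matched. The low share was largest among shallow cells, 37.7% and 53.7% of cTEC with 4000 to 8000 UMIs, and smallest among deep ones, 19.9% and 21.4% of those with 32000 or more. Low cells were thus not confined to shallow cells, since 53 and 41 of them lay in the deepest class. For the gene and tag calls, low and rich cells were therefore drawn in equal numbers within bins of 0.25 log2 UMIs in each well, which left 259 cells a group in well 1 and 197 in well 2, and 189 and 149 without foreign clusters. The marker check, the bands and the RNA levels beside 16 weeks used all cells of a group.

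The markers were also read in cells that should lack them. Cells with more collagen and decorin than epithelial UMIs, 276 and 265 in wells 1 and 2 and here called collagen cells, still held Tbata at 4.47 and 4.86 and Ccl25 at 2.67 and 3.73 UMIs per 10000. Of these cells 11.96% and 9.43% would pass the limit on Psmb11 and Prss16. Low cells held Tbata at 7.95 and 8.16 at matched depth, so that a large part of the Tbata read in low cells was at the level seen in collagen cells. Whether free RNA or doublets put these UMIs there was not tested, and their level is called the droplet background here.

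**Figure D1:**
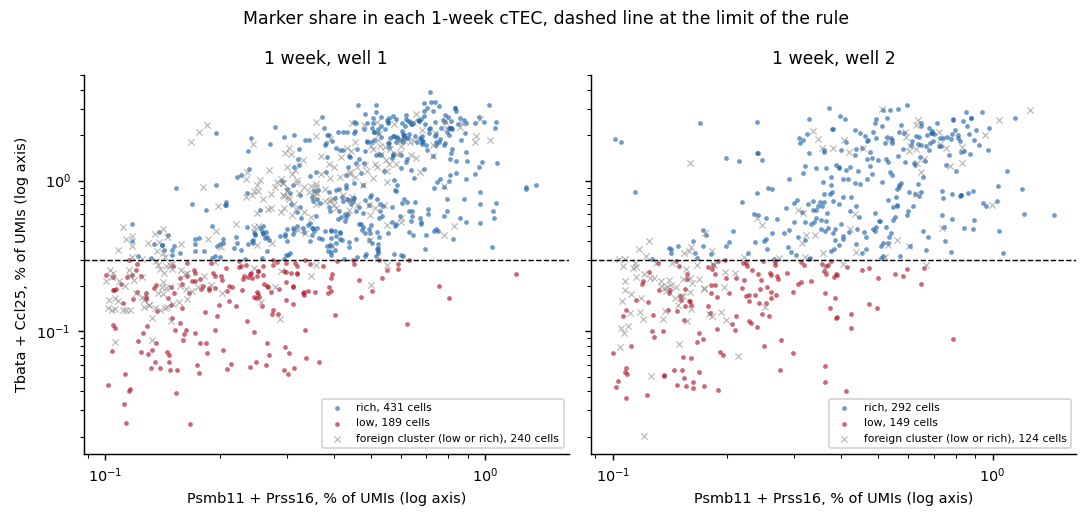
Each point is a 1-week cTEC, with Psmb11 and Prss16 on the x axis and Tbata and Ccl25 on the y axis, both as % of the cell's UMIs on log axes, with well 1 left and well 2 right. The dashed line is the limit at 0.3%, crosses are cells of foreign clusters, and the points run through the line without a gap, with 48 and 40 cells just below it and 39 and 31 just above.

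The cTEC label was checked against collagen cells only, with genes that the rule did not use. Ackr4, a scavenger receptor for CCL19, CCL21 and CCL25, Frem2, an extracellular matrix protein, and Cdh8, a cadherin, had been named as markers of these cells. The check was made outside foreign clusters, with each cell thinned to 4000 UMIs. Ackr4 was read in 43.9% and 40.9% of low cells, against 5.80% and 6.79% of collagen cells. Frem2 was read in 27.5% and 30.2%, against 2.90% and 4.15%, and Cdh8 in 26.98% and 34.2%, against 1.81% and 3.77%. All 3 markers stood above the droplet background, and none of their intervals touched that of the collagen cells in the same well. Other TEC were not read in this check, so it cannot tell cTEC from other TEC. Enpep, which encodes the cTEC surface marker Ly51, did not separate in this way: it was read in 10.6% (6.58 to 15.9) and 10.1% (5.74 to 16.1) of low cells against 5.80% (3.35 to 9.24) and 5.28% (2.92 to 8.71) of collagen cells. Unthinned, the shares of low cells were 73.5% and 71.1% for Ackr4, 60.3% and 58.4% for Frem2 and 52.4% and 55.7% for Cdh8, at median depths of 11230 and 12183 UMIs. The unthinned shares of collagen cells, at 19547.5 and 18449 UMIs, were 22.8% and 20.4%, 14.1% and 12.5%, and 11.2% and 14.3%.

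Part of the low group went against the label. The 1425 cTEC fell into 13 clusters, and in 5 of them the marker genes of another cell type took at least 4 times their share over all cTEC. These 5 are called foreign clusters, and they held 134 of the 472 low cells (28.4%) and 230 of the 953 rich cells. A cluster of 29 cells, 23 of them low, was led by the endothelial genes Tie1, Kdr and Flt1. A cluster of 23 cells, 20 of them low, was led by Rgs5 and Notch3, genes of the mural cells that wrap vessels. In a cluster of 108 cells, 74 of them low, mature medullary TEC markers stood at 8.20 times their mean share, with Skint7 and Ttn among its leading genes. A cluster of 114 cells with Rag1, Cd3e and Themis held 17 low cells, and a cluster of 90 rich cells, all from well 1, held none. Whether these cells were doublets, cells with captured free RNA or cells of mixed identity was not tested, so the counts of called genes and tags are given with them and without them, and a gene's value is given for all matched cells unless the sentence says otherwise. Leaving them out was chosen after the clusters were seen.

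The 338 low cells outside foreign clusters were of several kinds. A first cluster was low in 121 of 176 cells, had a median of only 5516.5 UMIs and carried 9.88% mitochondrial RNA. Another was low in 88 of 104 cells, had 30134 UMIs and 1.80% mitochondrial RNA, and had Gpha2, Scn1a, Pak3 and Cdh11 among the genes highest in it against the other cTEC. These were not confined to it among low cells: Scn1a stood at 0.289 and 0.244 UMIs per 10000 in its low cells and at 0.765 and 0.282 in those of the first cluster, and Cdh11, a cadherin gene, was at 0.577 and 0.758 and reached 0.755 and 1.24 in the cluster described next. A smaller cluster was low in 53 of 61 cells and was led by the mitotic genes Anln, Cenpf and Kif2c. Krt15, which was also among its leading genes, was a signal of 1 well, at 0.656 UMIs per 10000 of its low cells in well 1 and 0.0204 in well 2. This cluster had a median of 11932 UMIs and 7.09% mitochondrial RNA, between the other two and nearer to the first cluster in both. In the low cells of the deep cluster Cd83 stood at 1.07 and 0.802 UMIs per 10000 and Ackr4 at 2.84 and 2.81. In those of the shallow cluster they stood at 1.61 and 1.08 and at 1.35 and 1.36. Low cells outside foreign clusters made up 30.5% and 33.8% of such cTEC.

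At matched depth, 421 of 10653 genes were called higher in low cells, or 3.95% of those tested, and 224 were called lower, or 2.1%. A gene was tested with at least 100 UMIs over both groups, its level was its share of all UMIs of a group and well, and it was called where low and rich cells differed by at least 2-fold in the same direction in each well. The median gene stood 0.12 higher in low cells on the log2 scale. Scaled to that median, 351 genes were higher and 296 lower, which takes the higher share of the calls from 65.3% to 54.3%. Without foreign clusters, 403 of 9863 genes were higher (4.09%) and 237 lower (2.4%). With foreign clusters and cells under 12000 UMIs both left out, 362 of 9239 were higher (3.92%) and 260 lower (2.81%). There the median share of ribosomal protein RNA was 19.9% and 19.3% in low cells against 14.4% and 12.8% in rich cells. Over all matched cells it was 10.7% and 9.92% against 12.9% and 10.1%. The part of this RNA in the calls was not tested. Of the higher calls 286 were shared by the first and the second comparison, which is 67.9% of the one and 71.0% of the other. Of the lower calls 174 were shared, or 77.7% and 73.4%. The cells were chosen by RNA of the same libraries, so these counts describe the contrast and test nothing.

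The genes lowest in low cells included several that were read near the droplet background. Fxyd2 (chr9:45399669-45410278), a small regulator of the sodium pump, stood at 0.791 and 0.663 UMIs per 10000 in low cells of wells 1 and 2 and at 8.83 and 5.75 in rich cells. Its log2 ratio was −3.35 (−3.47 to −3.23), and −3.51 without foreign clusters. Collagen cells held Fxyd2 at 0.611 and 0.513, so in low cells it was hardly above background, while the wells of rich cells were both far above it. Neu2, a sialidase, was at 0.0256 and 0.0287 against 0.360 and 0.281, a log2 ratio of −3.60 (−4.29 to −2.97). Myo5c, a myosin motor of epithelial cells, was at 0.0427 and 0.0402 against 0.423 and 0.472, a log2 ratio of −3.41. Inmt, a methyltransferase, was at 0.0556 and 0.0862 against 0.577 and 0.844, a log2 ratio of −3.33. Isg20 and Oma1 were, with Fxyd2, the most abundant of the 12 lowest genes. Isg20, an RNA exonuclease, stood at 1.70 and 1.90 in low cells and at 14.1 and 11.8 in rich cells, a log2 ratio of −2.87 (−2.95 to −2.79). Oma1, a protease of the inner mitochondrial membrane, stood at 1.03 and 0.953 against 6.996 and 6.86, a log2 ratio of −2.79. Low and rich wells did not overlap for any of these genes. The 2-fold call in each well all but fixed this beforehand, so it adds no support. The others of the 12 were Gm29481, Gm14372, Aldh3b2, Rasl10a, Cass4 and Amn, with log2 ratios from −3.38 to −2.92.

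Of 24 antigen processing genes tested, 3 were lower and 1 was higher, against 2.1% lower and 3.95% higher over all genes, with a median log2 ratio of −0.31 against 0.12 over all genes. Ctsl, the cysteine protease cathepsin L that makes class II peptides in the cortex, stood at 48.7 and 47.1 UMIs per 10000 in low cells and at 133 and 129 in rich cells, and so fell by 1.45 on the log2 scale, against 15.1 and 17.9 in collagen cells. Ly75, the endocytic receptor DEC-205, stood at 1.98 and 2.20 against 4.03 and 4.61, a log2 ratio of −1.04. Psmb10, an immunoproteasome subunit, stood at 7.11 and 6.36 against 16.0 and 14.7, a log2 ratio of −1.19, and with −1.07 it was not called without foreign clusters. Lgmn, the protease legumain, was the gene that rose, from 0.206 and 0.227 in rich cells to 0.517 and 0.468 in low cells, a log2 ratio of 1.20. It was also read in collagen cells, at 0.567 and 0.638. Of these 4 genes only Ctsl was called without foreign clusters, over 12000 UMIs and without cycling cells alike. Ly75 was not called over 12000 UMIs, at −1.08. The class II genes were not called: H2-Ab1 stood at 25.9 and 25.3 against 27.1 and 27.4, H2-Aa at 23.3 and 22.9 against 29.6 and 29.3, and Cd74, the invariant chain, at 72.1 and 68.7 against 88.1 and 83.4.

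In the list of ligands and chemokines for thymocytes, which also holds scavenger receptors, most genes did not reach the 2-fold limit. Of 11 tested, Ackr4, a receptor and not a ligand, was higher and Cxcl16 lower, against 3.95% and 2.1% of all genes. The list's median log2 ratio was −0.36. Ackr4 (chr9:104084157-104126933) stood at 1.95 and 1.96 UMIs per 10000 in low cells and at 0.668 and 0.739 in rich cells, a log2 ratio of 1.48 (1.35 to 1.62), and 1.44 without foreign clusters. Cxcl16, a membrane-bound chemokine, stood at 0.325 and 0.258 against 0.666 and 0.582, a log2 ratio of −1.09. It was not called without foreign clusters, but was with cycling cells left out too, at −1.25, and over 12000 UMIs, at −1.42. Dll4, the Notch ligand that commits progenitors to the T lineage, stood at 0.725 and 0.899 against 1.31 and 1.72 and was not called. Il7, the thymocyte survival cytokine, stood at 1.59 and 1.67 against 2.12 and 2.08, Kitl at 1.20 and 1.17 against 1.21 and 1.04, and Cxcl12 at 8.16 and 7.77 against 11.2 and 9.92. The Dll4, Il7 and Cxcl12 values of both low wells lay under those of both rich wells, while the values of Kitl overlapped.

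Of 14 thymic epithelial transcription factors tested, 0 were called in either direction, against 3.95% higher and 2.1% lower over all genes. At those shares a list of 14 genes may well hold no call, so the count says little about these factors. Foxn1, the master factor of thymic epithelium, stood at 1.36 and 1.61 UMIs per 10000 in low cells and at 2.21 and 2.39 in rich cells, a log2 ratio of −0.64 (−0.75 to −0.54). Pax1 stood at 4.81 and 4.84 against 6.58 and 6.19, and Pax9, its paralogue, at 1.70 and 1.66 against 1.39 and 1.24. Sox9 stood at 1.32 and 1.38 against 0.828 and 0.952, and Isl1 at 1.18 and 1.16 against 0.817 and 0.682. Low cells thus held less Foxn1 and Pax1 and more Pax9, Sox9 and Isl1 RNA in both wells, each by less than the limit.

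Among the cTEC markers given for these cells, Ackr4 alone was called. Frem2 stood at 0.598 and 0.612 UMIs per 10000 in low cells and at 0.443 and 0.554 in rich cells, a log2 ratio of 0.30. Cdh8 stood at 0.703 and 0.899 against 0.840 and 1.30, a log2 ratio of −0.40, and −0.16 (−0.32 to 0.01) without foreign clusters. The low and rich wells overlapped for Cdh8.

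With foreign clusters kept, the genes highest in low cells were mostly rare transcripts. Hs6st2, a heparan sulfate sulfotransferase, had the highest log2 ratio, 3.77 (2.67 to 5.13), from 95 UMIs in low and 7 in rich cells. Fat3, a giant protocadherin, stood at 0.395 and 0.468 UMIs per 10000 in low cells and at 0.0532 and 0.0682 in rich cells, a log2 ratio of 2.84 (2.40 to 3.30). Fbln7, an adhesive matrix protein, stood at 0.173 and 0.190 against 0.0340 and 0.00852, a log2 ratio of 2.96. Fat3 was scarce in collagen cells, at 0.0182 and 0.0374, whereas Hs6st2 was read there at 0.219 and 0.226, Fjx1 at 0.235 and 0.244 and Aqp5 at 0.204 and 0.210, at or above their levels in low cells or close to them. Tnfrsf18, which encodes the TNF receptor GITR, stood at 0.267 and 0.213 against 0.0277 and 0.0426, and the water channels Aqp3 and Aqp5 had log2 ratios of 2.92 and 2.63. Etv4, an ETS factor induced by FGF signalling, stood at 0.229 and 0.267 against 0.0340 and 0.0455, a log2 ratio of 2.65. Fjx1, Anln, 1700023F06Rik and Ch25h had log2 ratios from 2.53 to 3.11. Mef2c, a transcription factor also expressed in endothelium, stood at 0.340 and 0.353 against 0.0511 and 0.0767, a log2 ratio of 2.48 that was 0.10 (−0.50 to 0.69) without foreign clusters. Mef2c was the 1 gene of the 12 that was tested without those clusters and not called, while Hs6st2, Fjx1 and Ch25h had under 100 UMIs there. Without foreign clusters mitotic genes led instead: Anln, Hmmr, Melk, Kif20a and Knl1 were the 5 highest, with log2 ratios from 3.31 to 3.74.

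**Figure D2:**
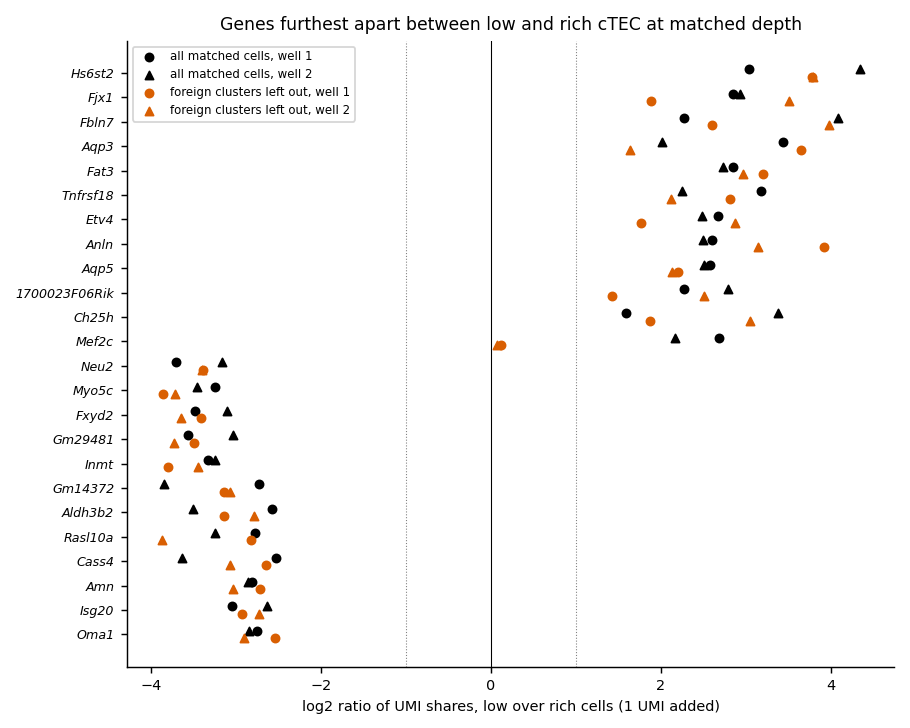
For the 12 highest and 12 lowest called genes, ranked by the ratio over both wells with 1 UMI added, the x axis gives the log2 ratio of UMI shares, low over rich cells with 1 UMI added, in well 1 (circles) and well 2 (triangles), with all matched cells in black and foreign clusters left out in orange. Dotted lines mark the 2-fold limits. The circles and triangles of a gene sit on the same side of 0, which the call requires of the black points. Mef2c moves from 2.68 and 2.16 to 0.12 and 0.07 when foreign clusters are left out.

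Cell cycle genes rose together. Of 22 tested, 17 were higher and 0 lower, against 3.95% and 2.1% of all genes, with a median log2 ratio of 1.61, and without foreign clusters 21 were higher with a median of 2.57. Without foreign clusters Top2a, the topoisomerase of dividing cells, stood at 2.64 and 1.66 UMIs per 10000 in low cells and at 0.299 and 0.219 in rich cells, a log2 ratio of 3.07 (2.85 to 3.30). Mki67, the proliferation marker Ki-67, stood at 2.45 and 1.35 against 0.373 and 0.202, a log2 ratio of 2.72. The 2 low wells differed from each other by more than 1.5 times for both genes and still stood far above both rich wells. Cells with over 0.2% of their UMIs in the list made up 26.5% (20.3 to 33.3) and 18.8% (12.9 to 26.0) of these low cells, against 4.76% (2.20 to 8.85) and 1.34% (0.163 to 4.76) of rich cells. With foreign clusters kept, the matched shares were 27.03% and 22.8% of low cells and 17.0% and 5.58% of rich cells, so the gap in well 1 was smaller. Before matching, 90 and 21 rich cells were cycling, and 16 and 4 without foreign clusters. Low cycling cells went from 70 and 47 to 50 and 28. Other 1-week TEC, which failed the limits on Psmb11 and Prss16, had 35.7% and 31.9% cycling cells. The trait was thus not particular to low cells. With foreign clusters and cycling cells both left out, 14 cell cycle genes could be tested and 2, Mcm3 and Mcm5, were higher, against 1.85% of all genes in that comparison.

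Without both foreign clusters and these cycling cells, 163 of 8814 genes were higher (1.85%) and 164 lower (1.86%), and the following genes kept the direction of their log2 ratio. Cd83 had a log2 ratio of −2.07, Ctsl −1.39, Isg20 −2.64 and Fxyd2 −3.17. On the other side, Ackr4 had a log2 ratio of 1.65, Fbln7 3.16, Fat3 3.14 and Krt14 1.36. Anln, at 3.74 without foreign clusters, was at 0.45. Several genes of the lists outside the cell cycle that were called without foreign clusters were not called there. They were Cd40 at −0.9997, Ly75 at −0.93, Bnip3 at −1.05 and Hspa1a at −1.04, and Lgmn at 1.14, Jag1 at 0.94, Spry1 at 0.96, Igfbp4 at 0.95, Rtp4 at 1.37, Hk2 at 0.88 and Apoe at 1.29. Fbln7 had under 100 UMIs there and was not tested.

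Genes of signalling pathways moved in both directions. Of 24 tested in the BMP, WNT, FGF and Notch list, 4 were higher, namely Id1, a target of BMP signals, the Notch receptors Notch1 and Notch3 and the ligand Jag1, and 2 were lower, against 3.95% and 2.1% of all genes. Jag1 stood at 0.278 and 0.190 UMIs per 10000 in low cells and at 0.106 and 0.0625 in rich cells, a log2 ratio of 1.46. Notch1 stood at 0.402 and 0.459 against 0.183 and 0.207, a log2 ratio of 1.14. Sfrp1, a secreted WNT inhibitor, stood at 0.308 and 0.261 against 0.772 and 0.844, a log2 ratio of −1.48, and Igf1r, the IGF1 receptor, at 1.11 and 1.23 against 2.29 and 2.78, a log2 ratio of −1.10. Notch1, Jag1, Sfrp1 and Igf1r were also called without foreign clusters, while Id1 was not called there, though it was called over 12000 UMIs and with cycling cells left out as well, and Notch3 had too few UMIs to be tested there. In that comparison Dusp6 and Spry1, feedback inhibitors of FGF signalling, and Igfbp4 were higher too, with log2 ratios of 1.32, 1.46 and 1.11. Collagen cells held Notch1 at 0.458 and 0.446 and Jag1 at 0.336 and 0.428, and the part of such background in these differences was not tested.

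Of 18 basement membrane and adhesion genes tested, 2 were higher, Lama5, a laminin chain, and Nid2, a nidogen, with log2 ratios of 1.14 and 1.25. This share is read against 3.95% of all genes and, without foreign clusters, against 4.09%. Without them neither was called, and 1 gene, Fras1, which encodes a basement membrane protein, was, with a log2 ratio of 1.11. Among keratins outside the rule, Krt14, the partner of Krt5 in basal epithelia, stood at 1.20 and 0.649 UMIs per 10000 against 0.289 and 0.256, a log2 ratio of 1.81, and Krt17 at 7.24 and 5.42 against 14.6 and 14.4, a log2 ratio of −1.16. The Krt14 level of the 2 low wells differed by nearly as much as the limit itself, but both lay above the rich wells. Of 6 intertypical TEC markers tested outside the rule, 3 were higher: Krt14, Pdpn, which encodes podoplanin, at 0.611 and 0.583 against 0.294 and 0.216, and Apoe, a lipid carrier, at 2.39 and 2.42 against 0.955 and 0.887. Collagen cells held Pdpn at 0.932 and 1.16 and Apoe at 6.40 and 6.25, and the fibroblast marker Fbln1 was called higher as well, at 0.769 and 0.804 against 0.243 and 0.202. The other fibroblast markers tested outside the rule, Lum and Dpt, had log2 ratios of −0.19 and −0.84 and were not called. The whole fibroblast list, which includes the 4 genes of the rule and was led by Col3a1, summed to 0.0629% and 0.0696% of UMIs in low cells and to 0.0608% and 0.0534% in rich cells. The part of fibroblast RNA in Pdpn, Apoe and Fbln1 was not tested.

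Over all matched cells, the stress and metabolic lists held about as many calls as all genes, of which 3.95% were higher and 2.1% lower. Of 18 immediate early and heat shock genes tested 1 was higher, Nr4a1, a nuclear receptor induced by stimulation, with a log2 ratio of 1.26. Of 16 interferon response genes 1 was higher, Rtp4, with 1.33, and of 13 glycolysis and hypoxia genes 1 was lower, Bnip3, a hypoxia-induced mitochondrial protein, with −1.21. Of 4 RNAs retained in the nucleus Meg3 was higher, with a log2 ratio of 1.37 that was 0.31 without foreign clusters. Without foreign clusters and over 12000 UMIs, 3.92% of all genes were higher and 2.81% lower. There 2 of 18 immediate early and heat shock genes were higher, Dusp1 and Nr4a1, and 2 lower, Dnajb1 and Hspa1a. Of 12 glycolysis and hypoxia genes 2 were lower there, Aldoa and Bnip3.

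With foreign clusters kept, 2 of 5 mural markers, Rgs5 and Notch3, and 1 of 4 endothelial markers tested, Egfl7, were called higher, against 3.95% of all genes, and the rest were not called. The 5 mural genes summed to 0.0566% and 0.0444% of UMIs in low cells at matched depth and to 0.0302% and 0.0289% in rich cells, and to 0.0234% and 0.0236% against 0.0267% and 0.0269% without foreign clusters. The median low cell held less than the median rich cell even with foreign clusters kept, 0.0215% and 0.0231% against 0.0309% and 0.0320%. Rgs5, the leading mural gene, stood 1.79 higher on the log2 scale with foreign clusters and at −0.29 (−0.52 to −0.06) without them. The 6 endothelial genes summed to 0.00902% and 0.00836% against 0.00319% and 0.00386%, and without foreign clusters to 0.00245% and 0.00331% against 0.00247% and 0.00259%. All 5 mural and 6 endothelial genes were above 0 in each of these groups. Mature medullary TEC markers, without foreign clusters, summed to 0.0100% and 0.00963% in low cells and to 0.0114% and 0.0104% in rich cells, and thymocyte genes to 0.0139% and 0.00998% against 0.0167% and 0.0183%. Tuft cell genes came to at most 0.00137% in low cells, with Il25 at 0 in both wells and Trpm5 at 0 in well 2. Myeloid genes summed to 0.00551% and 0.00618% against 0.00607% and 0.00579%, and erythroid genes to 0.00543% and 0.00307% against 0.00476% and 0.00283%.

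**Figure D3:**
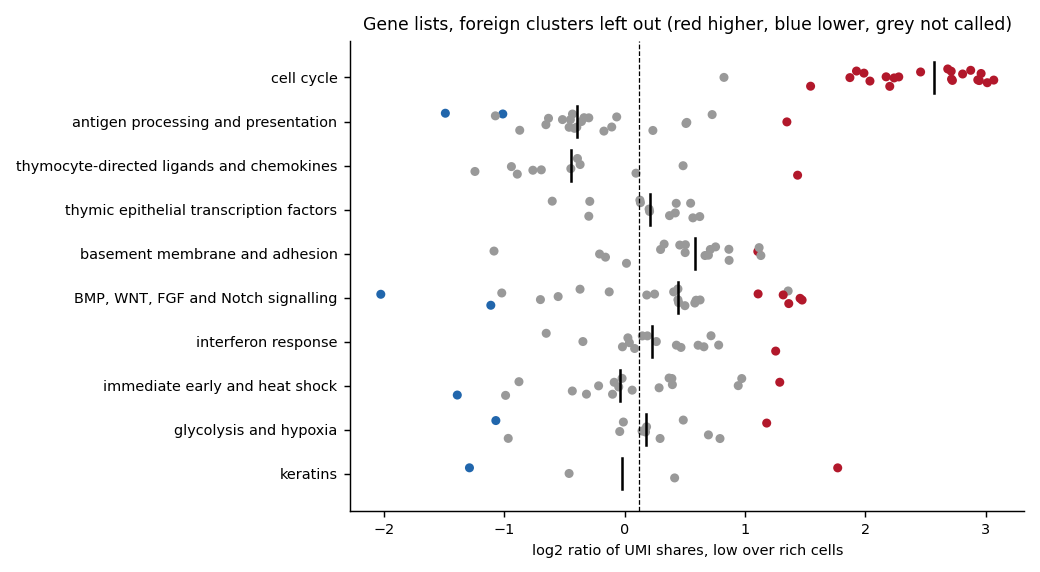
Each point is a gene of a list tested without foreign clusters, with its log2 ratio of UMI shares, low over rich cells, on the x axis, coloured by call (red higher, blue lower, grey not called), and the black bar is the list's median. The dashed line marks the median of all genes, 0.12, and the cell cycle list, with 21 of 22 genes called higher and a median of 2.57, lies apart from it.

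Levels changed by degrees with the content of Tbata and Ccl25. Outside foreign clusters, cells were placed in 6 bands from under 0.1% to 1% or more, which held 47, 68, 74, 125, 108 and 198 cells in well 1 and 37, 56, 56, 72, 85 and 135 in well 2. Cd83 ran through 0.807, 1.23, 1.79, 2.08, 3.15 and 6.498 UMIs per 10000 in well 1 and through 0.474, 1.19, 1.39, 2.45, 3.20 and 6.68 in well 2. Ctsl went from 41.2 and 30.0 in the lowest band to 173 and 160 in the highest, and Isg20 from 0.985 and 1.16 to 19.3 and 18.0. Fxyd2 differed in shape, since it was at 1.83 and 2.37 in the fifth band and at 11.3 and 9.84 in the highest. Ackr4 ran the other way, from 2.88 and 2.52 down to 0.615 and 0.590. Fat3 stood at 0.368 to 0.638 over the 3 bands under the limit in both wells and at 0.130 and 0.203 in the band above it. Median depth did not follow the bands, with 33554 and 28596 UMIs in the lowest, 6035 and 6530 in the fourth and 42545.5 and 42234 in the highest. Psmb11 and Prss16 were part of the rule and vary with the bands, so the bands are no independent scale.

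**Figure D4:**
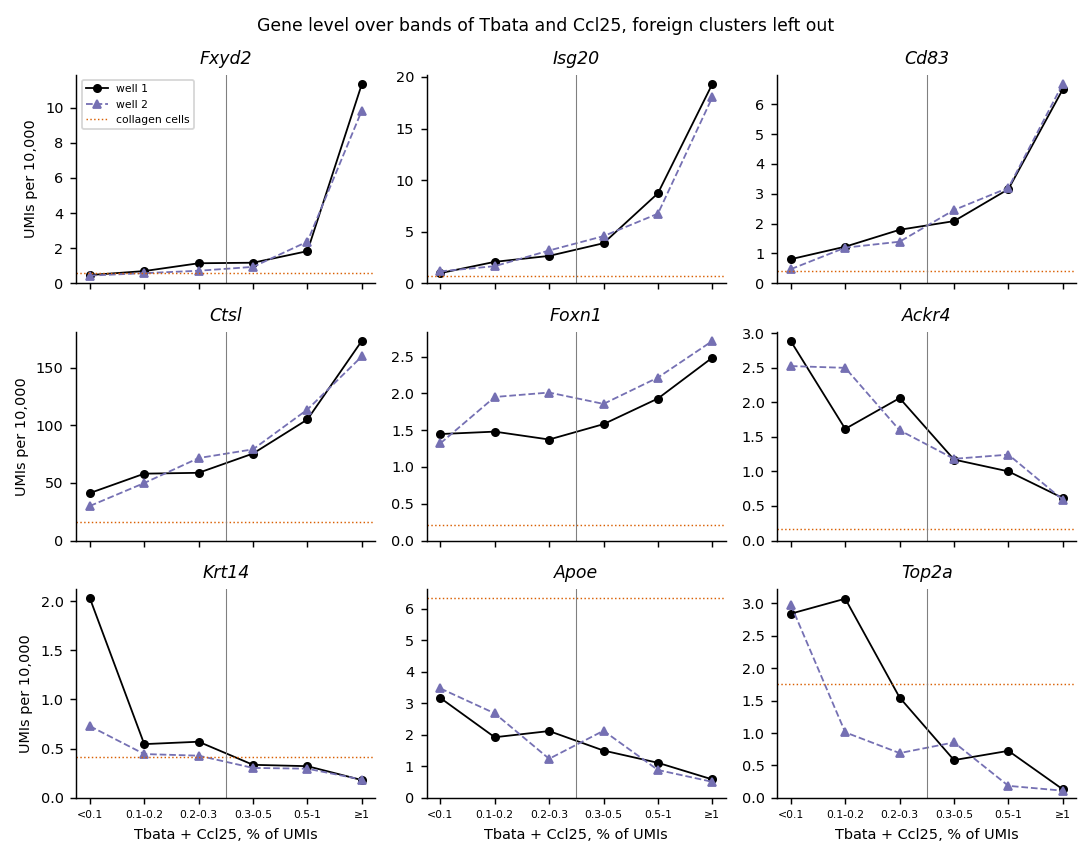
UMIs per 10000 (y axes, from 0) of 9 genes in 6 bands of Tbata and Ccl25 (x axis, % of UMIs) are drawn for well 1 (circles, solid) and well 2 (triangles, dashed), with foreign clusters left out. The vertical line is the limit at 0.3% and the dotted line the mean of collagen cells. Cd83 climbs from 0.807 and 0.474 to 6.498 and 6.68 while Ackr4 descends from 2.88 and 2.52 to 0.615 and 0.590.

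On the surface, low cells carried less CD83, CD40, CD270 and CD274. Of 27 tags, 4 were lower (14.8%) and 5 higher (18.5%), where a tag was called at a difference of at least 0.5 in each well. Levels are means over cells of log2(x + 1), where x is the tag count divided by the cell's total tag count and multiplied by the mean total. CD83, an activation molecule that stabilises class II on TEC, stood at 0.988 and 1.08 on low cells of wells 1 and 2 and at 2.09 and 2.20 on rich cells. CD40, a TNF receptor family member, stood at 4.74 and 4.91 against 5.77 and 5.84. CD270, the receptor HVEM, stood at 6.79 and 6.90 against 7.66 and 7.65, and CD274, the checkpoint ligand PD-L1, at 4.13 and 4.19 against 5.58 and 5.34. The call itself required a lower level in each well. For all 4 the wells of a group lay closer to each other than to the other group. Without foreign clusters the same 4 were lower (14.8%), and over 12000 UMIs 5 were (18.5%), CD31 joining them.

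Both CD83 and CD40 were lower as RNA too, Cd40 not past the limit once foreign clusters and cycling cells were left out. Cd83 (chr13:43784775-43803132) stood at 1.14 and 1.07 UMIs per 10000 in low cells and at 4.94 and 5.31 in rich cells, a log2 ratio of −2.20 (−2.31 to −2.10). Cd40 (chr2:165055627-165072948) stood at 0.265 and 0.267 against 0.606 and 0.543, a log2 ratio of −1.12, against 0.131 and 0.141 in collagen cells. The RNA and the protein were read in the same cells but in separate libraries. CD83 tags were counted on 57.1% and 60.4% of low cells outside foreign clusters, on 85.7% and 85.2% of matched rich cells and on 10.5% and 15.8% of collagen cells. The median tag total of collagen cells was only 259.5 and 271, against 4064 and 3899 on these low cells. Their share is therefore no background at like tag depth. Cd274 RNA, at 3.09 and 3.80 against 5.10 and 5.49, was lower by 0.63 on the log2 scale and not called, and Tnfrsf14, the gene of CD270, had 12 and 18 UMIs in all, too few to test. After scaling, MHCII tags, the most abundant, were within 0.5 of each other on low and rich cells in each well. CD54 stood at 9.09 and 8.98 against 9.25 and 9.19 and was not called either. MHCII is itself a large part of the total used for scaling, so its scaled level cannot show whether MHCII differed. Unscaled, its median count was 2574 and 2681 on low cells against 3467 and 4864 on rich cells.

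The tags called higher on low cells were CD9, CD49a, MadCAM1, Sca1 and UEA1. CD49a, the integrin α1 chain, stood at 3.90 and 3.75 against 2.92 and 2.65, and MadCAM1, an adhesion molecule for gut-homing lymphocytes, at 3.44 and 3.42 against 2.46 and 2.39. CD9, a tetraspanin, stood at 4.70 and 4.66 against 4.11 and 3.86, UEA1 at 8.65 and 8.74 against 8.03 and 7.90, and Sca1 at 5.23 and 4.84 against 4.23 and 4.32. The 2 groups did not overlap for any of the 5, which the call in each well made likely beforehand. Without foreign clusters 8 tags were higher (29.6%), as they were over 12000 UMIs (29.6%): CD9, CD49a, MadCAM1, UEA1, CD73, CD200, Podoplanin and Epcam were called in the former. Sca1, with differences of 0.99 and 0.48, was not among them. Over 12000 UMIs Sca1 was called, with 1.09 and 0.66, in place of UEA1, with 0.43 and 0.76. Podoplanin stood at 7.44 and 7.33 against 6.59 and 6.51 without foreign clusters, and its gene, Pdpn, was called higher as RNA. The genes of the other higher tags were not called in these comparisons: over all matched cells Cd9 had a log2 ratio of 0.53 and Itga1, the gene of CD49a, 1.06, with well 1 just under the limit. Itga1 was called, at 1.10, without foreign clusters and cycling cells. Ly6a, the gene of Sca1, was at 0.80 in well 1 and −0.08 in well 2, and Madcam1 had only 17 and 6 UMIs. Without foreign clusters Cd200 had a log2 ratio of 0.41, and Nt5e, the gene of CD73, had 15 and 7 UMIs.

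The higher tags depended on the scaling by total tag count, which was itself lower on low cells. Without foreign clusters the median total was 4064 and 3899 on low cells and 5563 and 6732 on matched rich cells. In unscaled counts, the median was 19 and 18 for CD9 against 12 and 13, 8 and 8 for MadCAM1 against 5 and 5, and 7 and 8 for CD49a against 5 and 6. For UEA1 it was 170 and 200 against 183 and 167, and for CD200 34 and 36 against 33 and 41, so these 2 were not higher in count in both wells. The unscaled CD83 median was 1 and 1 against 4 and 5, and that of CD40 13 and 15 against 51 and 68. Of all 27 tags unscaled, 1 was called higher and 4 lower.

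**Figure D5:**
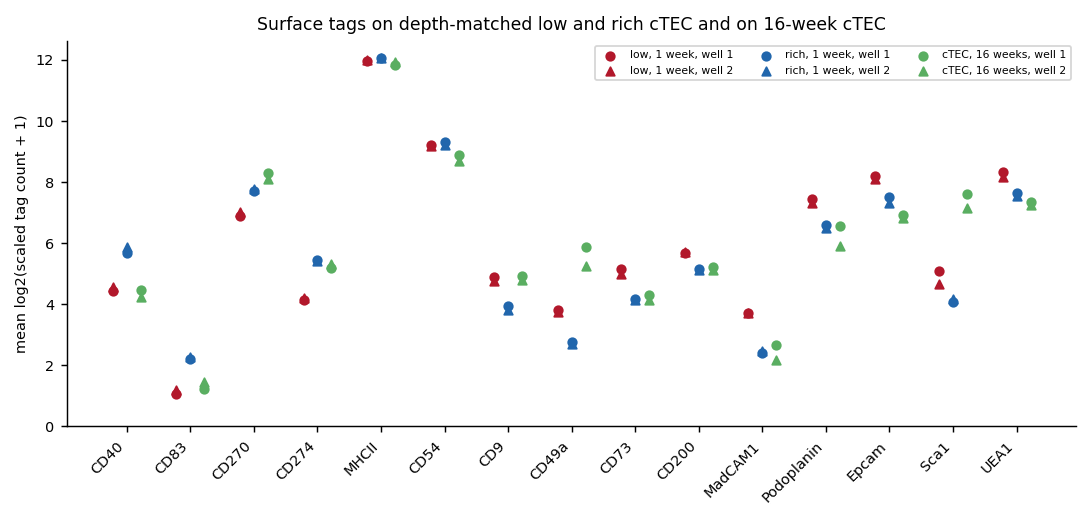
Mean log2(scaled tag count + 1) of 15 tags (y axis, from 0) is given for depth-matched low and rich cTEC at 1 week without foreign clusters and for all cTEC at 16 weeks, with well 1 as circles and well 2 as triangles. On low cells CD40 is at 4.43 and 4.58 and CD83 at 1.07 and 1.19, under rich cells at 5.67 and 5.88 and at 2.20 and 2.28, and close to 16-week cTEC at 4.47 and 4.25 and at 1.21 and 1.45.

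Set beside cTEC of 16 weeks, low cells shared some levels and not others. CD40 and CD83 tags did not separate low cells from 16-week cTEC by 0.5 in every pair of wells, with 16-week levels at 4.47 and 4.25 and at 1.21 and 1.45. In 4 tags low cells stood higher than 16-week cTEC by at least 0.5 in every pair of wells (14.8%) and in 4 lower (14.8%). Sca1 was at 7.60 and 7.15 on 16-week cTEC, CD49a at 5.87 and 5.27, CD270 at 8.29 and 8.09 and CD274 at 5.19 and 5.31, all above low cells. CD63 was at 5.45 and 5.01 on 16-week cTEC and at 6.62 and 6.66 on low cells, and Epcam, UEA1 and MadCAM1 were higher on low cells too. Low cells therefore differed from 16-week cTEC in Sca1, CD49a and CD63 while their CD83 and CD40 levels were near. Age and pool cannot be told apart here, because each age was 1 pool.

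RNA levels were set beside all 16-week cTEC too, low and rich together, and did not repeat the nearness of the CD83 tag. Without foreign clusters Cd83 stood at 1.17 and 0.981 UMIs per 10000 in low cells, at 5.42 and 5.45 in all rich cells and at 1.87 and 3.26 in 16-week cTEC. Isg20 was at 1.73 and 1.91, 15.7 and 14.1, and 3.94 and 6.94 in the same order. For both genes the 16-week wells lay between the low and the rich wells. Fxyd2 differed from both, at 0.695 and 0.564, 8.58 and 7.21, and 11.5 and 10.5, so 16-week cTEC were nearer to rich cells in it. Frem2 was at 0.626 and 0.690, 0.470 and 0.514, and 0.126 and 0.175, and Cdh8 at 0.752 and 0.940, 0.699 and 1.07, and 0.301 and 0.168. These 2 genes were read more in the 1-week cTEC of either kind than at 16 weeks. Ackr4, at 2.15 and 1.55 at 16 weeks, was nearer to low cells at 2.26 and 2.25 than to rich cells at 0.746 and 0.7996.

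The contrast was repeated in cells that the 1-week rule did not use, by splitting 16-week cTEC at the same limit and matching depth, with 11 and 39 cells a group. Of the genes called without foreign clusters at 1 week, 128 of the 403 higher ones had at least 30 UMIs there, and 109 of them (85.2%) were above 0, with a median log2 ratio of 0.62. Of the 237 lower ones 174 could be measured, and 148 (85.1%) were below 0, with a median of −0.70. Over all 7243 genes measured, 55.9% were above 0 and the median was 0.05. Fxyd2 had a log2 ratio of −2.96 at 16 weeks, from 122 UMIs in low and 954 in rich cells, and Ackr4 had 1.50, from 253 and 90. Isg20 had −1.17, Cd83 −0.97 and Ctsl −0.77, each closer to 0 than at 1 week. Krt14, with −0.14, was not higher in low cells at 16 weeks. Of the 27 tags 1 was called at 16 weeks (3.7%), MadCAM1, at 3.34 and 2.63 on low cells against 2.54 and 2.01 on rich cells. None of the 4 tags lower at 1 week was lower in both wells at 16 weeks: the differences, low minus rich, were 0.25 and −0.13 for CD83, −0.74 and 0.10 for CD40, 0.37 and −0.39 for CD270 and 0.06 and −0.12 for CD274. The same 1-week and 16-week rule chose both contrasts, so shared genes that follow Tbata, Ccl25, Psmb11 and Prss16 are described, not tested.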

How the data were processed

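Whole-number UMI counts per gene and cell and whole-number tag counts per cell, as deposited by the authors, were the input, neither of them normalised. Per the labels and the methods, the authors aligned reads to mm10 with STARsolo 2.7.9a and Ensembl 102 gene models and kept cells with at least 2000 UMIs. The labels name version 2 of the 3′ kit and the methods version 3, which was not settled here. The 1-week wells held 31917364 and 25654110 RNA UMIs in 1846 and 1430 cells, and 8821612 and 7984013 tag counts. The 16-week wells held 21281389 and 45480790 UMIs in 1939 and 4738 cells, and 8583623 and 15759159 tag counts. Of 55487 gene identifiers 55141 matched a symbol in GENCODE M21, the source of coordinates on GRCm38 (mm10). Of all cells 35 shared a barcode with a cell of another library, 1 of them low and 6 rich. The counts do not show how reads shared by similar gene copies were split.

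Members and gene lists were chosen with earlier results of these data known. Cells were grouped by library through the ending of their names. Values were computed with Python 3.11.15, NumPy 2.4.6, SciPy 1.17.1 and scanpy 1.11.5. UMIs of depth-matched cells were summed per group and well, and log2 ratios were taken of the shares over both wells summed, and within a well with 1 UMI added. Clusters came from 30 principal components of 2000 variable genes (15 neighbours, Leiden resolution 1, igraph 0.11.9). Doublets were kept in, and leaving out the highest scrublet scores at 0.8% per 1000 cells was an alternative. Named genes were the 12 highest and 12 lowest among called genes with a symbol, ranked by the summed ratio with 1 UMI added, without rule, mitochondrial and ribosomal genes, and the called genes of the lists with all surface, transcription factor and ligand genes. Cdh11, Gpha2, Scn1a, Pak3 and other cluster genes were named after their values were seen. No test was run, because each age was 1 pool on 2 wells. The summing and calling steps were tested on simulated data. Alternatives covered limits, depth matching, minimum counts, scaling, tag normalisation, cycling cells, doublets and each well left out.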

Additional observations from a re-analysis of the deposited data

Results flagged for a closer look

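The log2 ratio of Jag1, a Notch ligand, had opposite signs at the 2 ages. It was higher in low than in rich cTEC at 1 week, with a log2 ratio of 1.46 and 196 against 72 UMIs, in both wells. At 16 weeks the log2 ratio was −0.39 (−1.10 to 0.31), from 32 and 42 UMIs, with −0.96 in well 1 and −0.0057 in well 2. That interval spans 0, so the counts do not set a direction at 16 weeks. The difference between the ages was not tested.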

How the results depend on the processing

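Low and rich cells were compared within each well, but no paired test was run, because the replicate numbers are 2 wells of 1 pool. Of 68 genes and 9 tags followed over 23 alternatives, 64 genes and all 9 tags kept their sign wherever they were measured. Values here are means of the log2 ratios of the wells, which differ slightly from ratios of summed UMIs. Rgs5 turned to −0.30 without foreign clusters, to −0.35 over 12000 UMIs and to −0.32 without foreign clusters and cycling cells. Birc5, Cenpf and Tpx2 turned to −0.028, −0.21 and −0.73 when cycling cells were left out. The low share was 20.4% at a limit of 0.2%, 51.3% at 0.5%, 28.1% over 12000 UMIs and 27.3% without foreign clusters and cycling cells. With Psmb11 and Prss16 at 0.5% or more it was 4.20%, and among 691 genes tested 5 were higher and 19 lower, with 2 tags higher, 1 lower and 2 lower than at 16 weeks. The count of higher genes was 224 without cycling cells and 163 without foreign clusters too, 767 without depth matching, 731 with at least 30 UMIs and 94 with at least 500, where 113 were lower. It was 154 with 99 lower in cells thinned to 4000 UMIs, and 246 with 131 lower by the mean over cells. Higher tags numbered 3 at the 0.5% limit, 2 by centred log ratio, 3 by a total without MHCII and UEA1 and 1 unscaled. They numbered 8 without foreign clusters, 8 over 12000 UMIs and 8 without foreign clusters and cycling cells, and over 12000 UMIs 7 were higher than at 16 weeks. Leaving out 1 well gave a low share of 30.1 to 37.7%, 317 to 446 higher and 258 to 277 lower genes, and 5 higher and 4 lower tags each time. The cause of these shifts was not tested beyond the cells or genes each setting removes. Settings on foreign clusters and on 12000 UMIs were chosen after seeing the data. Depth limits rare genes, since 100 UMIs over both groups and wells were required.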
